A study of Homo sapiens with 4 samples.

Results

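Among the H3K27me3 domains of retinoic acid-treated SH-SY5Y cells, 511 were of middle size and lay far from any CHD5 peak. H3K27me3 regions separated by up to 3000 bp were joined into domains, which gave 38537 in all. Domains on chromosomes 1 to 22 that were at least 20 kb and under 50 kb wide and had no CHD5 peak inside or within 250 kb of either edge are called remote domains here. The 1120 domains of the same width that did have a CHD5 peak inside or within 250 kb are called near domains. Members were thus chosen by 2 measured values, the width of a domain in the H3K27me3 list and its distance to the nearest peak of the CHD5 list, which are given below as descriptions and not as findings. All positions are on hg19. Of 1631 autosomal domains of this width, 31.3% had no CHD5 peak within 250 kb, against 45.7% of the 33793 autosomal domains of any width, 47% of those under 5 kb and 23.5% of those of 50 kb or more.

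SH-SY5Y cells derive from a human neuroblastoma and grow neurites when given retinoic acid, and the cells had been kept in 10 uM of it for 8 days. CHD5 was mapped in cells that expressed FBio-CHD5, a tagged protein captured on streptavidin beads, and H3K27me3 was precipitated with an antibody from chromatin of cells labelled in the same way. A streptavidin pull-down from FBio-Ctrl cells and an input library, from cells labelled FBio-CHD5, complete the 4 libraries, with no replicates, and all 4 come from retinoic acid-treated cells. Region lists of the control pull-down and the input were not used here.

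H3K27me3 is the trimethyl mark that Polycomb repressive complex 2 places on lysine 27 of histone H3. The complex can bind the mark it has made, by which the mark spreads over neighbouring nucleosomes into domains at genes that are kept silent. CHD5 is a chromodomain helicase of the nucleosome-remodelling family, expressed mainly in brain and testis, and it is known as a tumour suppressor lost with the short arm of chromosome 1 in neuroblastoma.

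The 2 lists hold 257073 H3K27me3 regions and 32543 CHD5 peaks. Neither gives counts of reads, and the depth behind each domain is unknown. With 1 library of each kind there is no replicate error and no test between remote and near domains. Intervals beside medians are 95% order-statistic intervals and those beside shares are Wilson 95% intervals. Both cover counting error over domains only, and they can be too narrow because neighbouring domains are not independent. Domain outlines also depend on the joining distance: with rows joined across up to 2000 bp, 138 of the 511 remote domains kept the same outline and 255 still had a piece of at least 20 kb.

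The remote domains spanned 14.7 Mb, of which 6.40 Mb lay inside H3K27me3 regions, and they held 17982 regions, or 6.99% of the list. Their median width was 26.7 kb, with quartiles of 22.9 and 32.6 kb. Near domains had a median of 28.7 kb, with quartiles of 23.9 and 35.7 kb. Of the remote domains 65.6% (61.3% to 69.5%) were under 30 kb, against 54.1% (51.2% to 57.0%) of near domains, so the remote set sat lower within the shared width limits. The median remote domain lay 411 kb from the nearest CHD5 peak, with quartiles of 320 and 618 kb and a highest value of 5.50 Mb. That highest value runs across the longest stretch of its chromosome with no region in either list. The median near domain lay 84.1 kb away, and 67 of the 1120 held a CHD5 peak.

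The 5 remote domains closest to the lower width limit were 20023 to 20111 bp wide and were covered by H3K27me3 regions over 29.7% to 56.5% of their length. The 5 domains just below it were 19924 to 19992 bp wide and were covered over 26.7% to 76.4%. At the upper limit the 5 inside were 49346 to 49673 bp wide, with 37.6% to 64.8% covered, and the 5 outside were 50118 to 51634 bp wide, with 40.4% to 91.8% covered. The 5 remote domains nearest to the distance limit lay 250.3 to 251.0 kb from CHD5 and were covered over 44.2% to 60.4%. The 5 near domains next to it lay 248.1 to 249.5 kb away and were covered over 21.0% to 70.2%.

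Remote domains were more sparsely filled than near domains at the joining distance used. The share of a domain inside H3K27me3 regions, called the covered share, had a median of 40.7% (39.5% to 42.0%) in remote domains and 46.7% (45.5% to 47.9%) in near domains. The difference was -5.98 percentage points, with an interval of -7.71 to -4.23. The quartiles were 33.3% and 50.1% for remote domains and 37.0% and 57.6% for near domains, so the sets overlapped widely. More than 50% was covered in 129 of 511 remote domains, or 25.2% (21.7% to 29.2%), against 459 of 1120 near domains, or 41.0% (38.1% to 43.9%). At most 30% was covered in 82 remote domains, or 16.0% (13.1% to 19.5%), against 100 near domains, or 8.93% (7.40% to 10.7%). When rows were joined across up to 1000 bp only, 114 remote and 412 near domains were left. Their difference in covered share was -0.39 percentage points, with an interval of -4.22 to 2.88, so the sets were not distinguishable there.

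Regions were shorter and gaps longer in remote domains, at the same number of regions per length. Remote domains held 1.25 regions per kb (1.22 to 1.26) and near domains also 1.25 (1.23 to 1.28). The median region within a domain was 249 bp wide (244.5 to 254) in remote domains and 270.0 bp (265 to 274) in near domains. The longest region of a domain had a median of 991 bp in remote domains and 1201.5 bp in near domains. Gaps between regions had a median of 268.5 bp (255 to 280.5) in remote domains and 225 bp (217 to 234) in near domains.

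Scores of the regions lay lower too. Each region carries the authors' score from the peak caller, whose scale is not stated, and the median over the whole H3K27me3 list was 84.6. The median score within a domain had a median of 92.9 (91.0 to 95.6) over remote domains and 101.9 (99.9 to 103.2) over near domains, a difference of -9.03 with an interval of -11.3 to -5.68. The highest score in a domain had a median of 495 (467 to 519) in remote domains and 612 (579 to 652) in near domains. In 349 remote domains, or 68.3% (64.1% to 72.2%), the median score reached that of the whole list, as it did in 888 near domains, or 79.3% (76.8% to 81.6%). Joining across up to 1000 bp turned the score difference to 3.69, with medians of 158.5 for remote and 154.8 for near domains. Wider regions tend to score higher in this list, so score and region width are not separate observations.

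The remote median lay lower in each class of width as well. From 20 to 25 kb the covered share had a median of 37.4% (35.3% to 39.8%) in 214 remote domains and 44.2% (42.1% to 46.6%) in 343 near domains. From 25 to 30 kb the medians were 42.7% (38.8% to 45.5%) in 121 remote and 44.3% (42.2% to 46.5%) in 263 near domains, whose intervals overlap. From 30 to 40 kb they were 42.0% (40.2% to 44.2%) in 128 remote and 48.7% (46.96% to 49.9987%) in 333 near domains. From 40 to 50 kb they were 46.7% (43.0% to 52.9%) in 48 remote and 50.01% (47.2% to 53.8%) in 181 near domains, again with overlapping intervals. The mean of these 4 differences was -4.63 percentage points. Domains outside the width class lay in the same order. From 5 to 10 kb the medians were 29.3% in 2174 domains without CHD5 within 250 kb and 34.1% in 2426 with it. At 50 kb or more they were 52.7% (48.5% to 58.0%) in 95 domains without it and 57.0% (55.0% to 60.1%) in 309 with it.

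**Figure D1:**
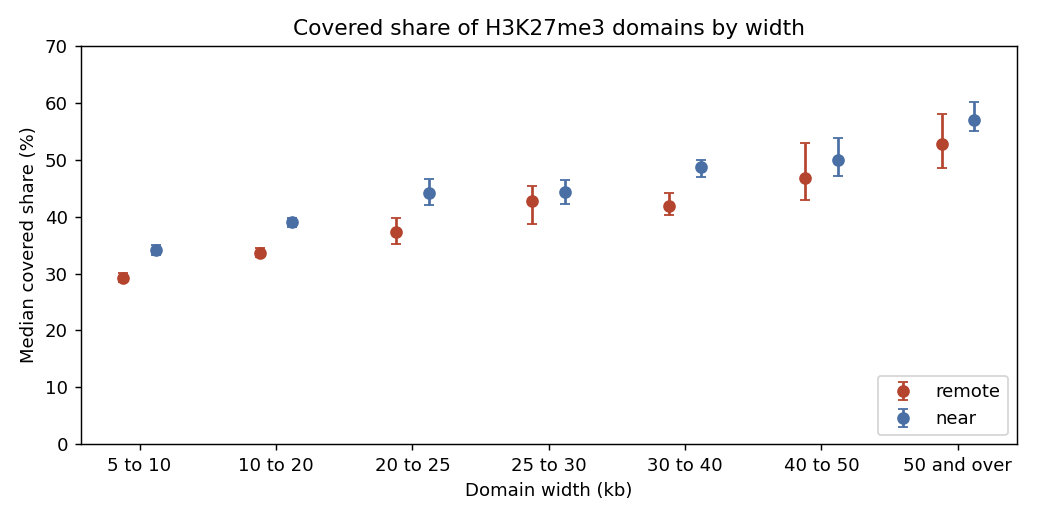
Median covered share (%) of autosomal H3K27me3 domains by width (kb), for domains with no CHD5 peak within 250 kb (remote, red, left) and with one (near, blue, right). Bars are 95% order-statistic intervals over domains. The remote median lay below the near median in each width class, with overlapping intervals from 25 to 30 kb, from 40 to 50 kb and at 50 kb or more.

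Coverage was lower in each class of distance farther from CHD5. Only at 250 kb, the limit of the rule, did the intervals of neighbouring classes not overlap. The largest classes, of 497 and 322 domains, meet there and have the narrowest intervals. The step in the median there was smaller than that from domains holding CHD5 to those within 10 kb. The covered share had a median of 56.6% (51.3% to 59.6%) in the 67 domains that held a CHD5 peak. It was 51.2% (47.4% to 55.8%) in the 77 with one within 10 kb and 47.4% (44.4% to 49.5%) from 10 to 50 kb. From 50 to 100 kb it was 45.8% (43.7% to 48.8%) and from 100 to 250 kb 45.1% (44.0% to 46.8%). Among remote domains it was 41.0% (39.4% to 42.6%) in the 322 at 250 to 500 kb, 40.6% (37.9% to 43.0%) in the 156 at 500 to 1000 kb and 39.9% (36.9% to 46.0%) in the 33 beyond 1000 kb. The 3 remote classes did not differ beyond their intervals. The median score followed, with 125 (113 to 137) in domains holding CHD5, 98.8 (96.6 to 102) at 100 to 250 kb and 92.1 (90.3 to 95.6) at 250 to 500 kb. With near domains that held a CHD5 peak left out, the difference in covered share between remote and near domains was -5.47 percentage points.

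**Figure D2:**
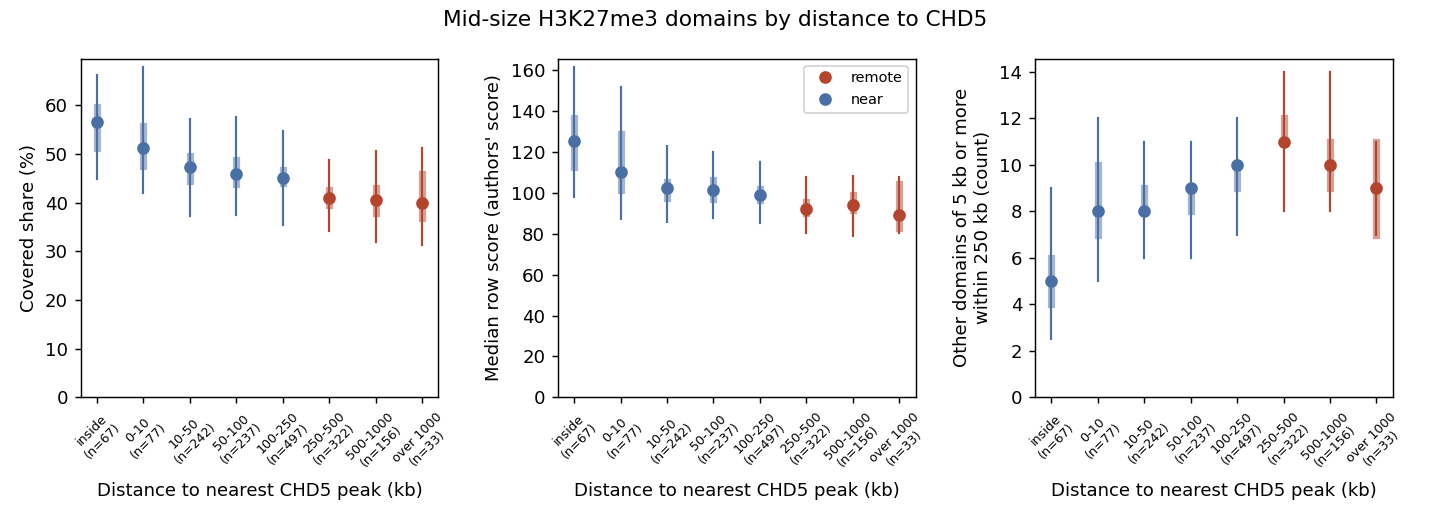
Covered share (%), median region score (authors' score) and number of other domains of 5 kb or more within 250 kb, for mid-size domains in classes of distance (kb) to the nearest CHD5 peak. Points are medians, thick bars 95% order-statistic intervals, thin lines quartiles, red marks remote and blue near classes. Covered share was 56.6% in domains with CHD5 inside and 39.9% beyond 1000 kb, and the number of neighbours was highest, at 11, from 250 to 500 kb.

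Within a domain the mark was spread in the same manner in both sets. In remote domains the mean coverage was 39.3% in the outermost 10% of the width at either edge and 44.99% in the 10% on either side of the centre. Near domains had 44.7% in the outermost 10% and 49.9% beside the centre. The region with the highest score lay in the outer 20% of the width at either edge in 169 remote domains, or 33.1% (29.1% to 37.3%), and in 365 near domains, or 32.6% (29.9% to 35.4%), which are not distinguishable. Remote domains were thus covered less than near domains at the edges and next to the centre alike.

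The surroundings of remote domains held more other domains, with less covered length in each, at the joining distance used. Within 250 kb of its edges the median remote domain had 11 other domains of 5 kb or more (10 to 11) and the median near domain had 9 (9 to 9). The difference of 2 turned to -1 with rows joined across up to 1000 bp, with 9 around remote and 10 around near domains. The interval there was -2 to 0.41, so the sets were not distinguishable. The difference was 1, with an interval of -0.41 to 2, with 500 kb as the distance limit. It was 1 (0 to 2) with only H3K27me3 regions of at least the median score. By distance, the median was 5 in domains holding CHD5, 8 within 10 kb and also from 10 to 50 kb. It was 9 from 50 to 100 kb and 10 (9 to 10) from 100 to 250 kb. Among remote domains it was 11 (11 to 12) at 250 to 500 kb, 10 (9 to 11) at 500 to 1000 kb and 9 (7 to 11) beyond 1000 kb. Remote domains beyond 500 kb thus had no more such neighbours than near domains at 100 to 250 kb. Counting domains of any size, the medians were 26 (25 to 27) around remote domains and 18 (18 to 19) around near domains. At least 10 domains of 5 kb or more lay around 313 remote domains, or 61.3% (57.0% to 65.4%), against 489 near domains, or 43.7% (40.8% to 46.6%). The flanks were nevertheless covered to a similar extent, with a median of 15.2% (14.3% to 16.4%) of bases around remote and 15.7% (15.1% to 16.4%) around near domains. Covered length divided by the number of other domains came to a median of 2882 bp around remote and 4147 bp around near domains.

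The next wide domain lay farther off from a remote domain in the median. The distance to the nearest other domain of at least 20 kb had a median of 41.4 kb (35.7 to 50.5) for remote and 22.8 kb (20.2 to 25.8) for near domains. The 90th percentiles lay in the other order, at 337 kb for remote and 524 kb for near domains. Near domains holding CHD5 had a median of 48.4 kb, above the 37.7 kb of remote domains at 250 to 500 kb. The other near classes of distance had 18.4 to 30.9 kb. The share with such a domain within 250 kb was nearly equal, with 440 remote domains, or 86.1% (82.8% to 88.8%), and 961 near domains, or 85.8% (83.6% to 87.7%). The difference of 0.30 percentage points had an interval of -3.49 to 3.79. Its sign depended on the distance limit. It was 4.97 (1.47 to 8.65) with 100 kb as the limit and -5.59 (-12.0 to -0.30) with 500 kb. With rows joined across up to 5000 bp it was 2.96 (0.22 to 5.58). A domain of 50 kb or more lay within 250 kb of 37.0% (32.9% to 41.3%) of remote and 38.7% (35.9% to 41.5%) of near domains. The gap to the next domain of any size was 4.25 kb (4.10 to 4.44) for remote and 4.16 kb (4.06 to 4.29) for near domains. That gap cannot be shorter than the joining distance of 3 kb.

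Beyond the first 25 kb outside the edge, coverage around the domains fell off more slowly on the remote side. In the first 25 kb outside the edge the mean coverage was 15.5% around remote and 19.4% around near domains. From 100 to 125 kb the means had met, at 18.0% for remote and 17.5% for near domains. From 225 to 250 kb they were 15.3% for remote and 13.0% for near domains, and from 475 to 500 kb 10.3% for remote and 9.86% for near domains. Domains near CHD5 thus stood in denser H3K27me3 close by and in sparser H3K27me3 beyond about 150 kb. Flanks of near domains include, by the rule, the places where CHD5 lies.

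**Figure D3:**
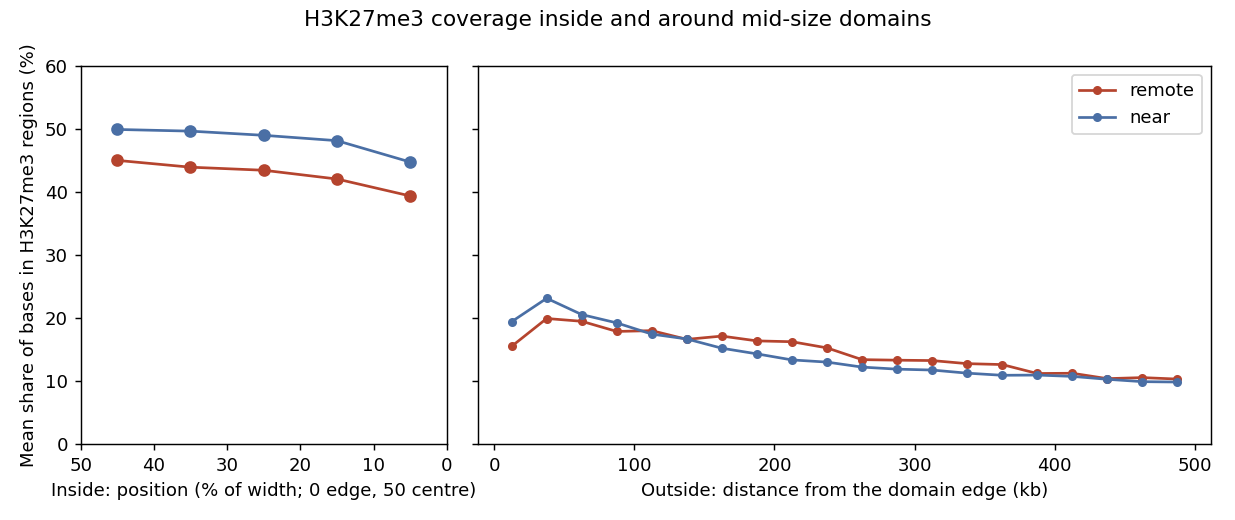
Mean share of bases inside H3K27me3 regions (%) within mid-size domains (left panel, position folded from the centre at 50% to the edge at 0%) and outside them (right panel, distance from the edge in kb, both sides pooled, 25-kb bins), for 511 remote (red) and 1120 near (blue) domains. Remote domains lie below near domains inside and in the first 25 kb outside, at 15.5% against 19.4%, and above them from 225 to 250 kb, at 15.3% against 13.0%.

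Remote domains were found on all 22 autosomes, in unequal shares. They made up 12.7% (6.58% to 23.1%) of the width class on chromosome 17, with 8 of 63 domains, and 13.4% (7.23% to 23.6%) on chromosome 19, with 9 of 67. Over domains of all widths the shares without CHD5 within 250 kb were 26.3% on chromosome 17 and 21.6% on chromosome 19. At the other end stood chromosome 3 with 20 of 44, or 45.5% (31.7% to 59.9%), chromosome 8 with 41 of 95, or 43.2% (33.7% to 53.2%), and chromosome 22 with 8 of 12, or 66.7% (39.1% to 86.2%). Over all widths those shares were 50.4% on chromosome 3, 54.5% on chromosome 8 and 29.2% on chromosome 22, so mid-size domains lay above the share over all widths on chromosome 22 and below it on chromosomes 3 and 8. On chromosome 11 they were 18.8% (8.89% to 35.3%) at middle size and 52.5% over all widths. On the 17 autosomes other than 3, 8, 17, 19 and 22, chromosome 11 included, the interval held the share of 31.3% over all autosomes. The share depends by the rule on how many CHD5 peaks a chromosome has. CHD5 was densest on chromosome 17, with 19.9 peaks per Mb, but chromosome 19 had 13.0 per Mb and chromosome 22 had 12.4 per Mb. Across the 22 chromosomes the Spearman correlation between CHD5 density and the remote share was -0.33, as a description of points that share both libraries.

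Counted by number, chromosome 7 held most remote domains, 55, and chromosomes 9 and 8 came next with 52 and 41. Chromosome 9 had the highest density, 0.368 per Mb, then chromosome 14 with 0.362 and chromosome 7 with 0.346. Chromosome 11 had the lowest, with 0.0447 per Mb from 6 domains. Region widths on chromosome 7 were longer in the whole list, with a median of 351 bp against 238 bp over all chromosomes, and its remote domains were covered over a median of 52.9% and its near domains over 58.7%. The part of these longer regions in the number of remote domains on chromosome 7 was not tested. Within chromosomes the covered share was lower in remote than in near domains on 18 of the 21 chromosomes with at least 5 domains in both sets. The exceptions were chromosome 11, with 44.2% in remote and 42.3% in near domains, chromosome 12, with 39.0% in remote and 38.8% in near domains, and chromosome 14, with 43.6% in remote and 41.4% in near domains. The median of the 21 differences was -7.26 percentage points, and without chromosome 7 the pooled difference was -5.12.

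**Figure D4:**
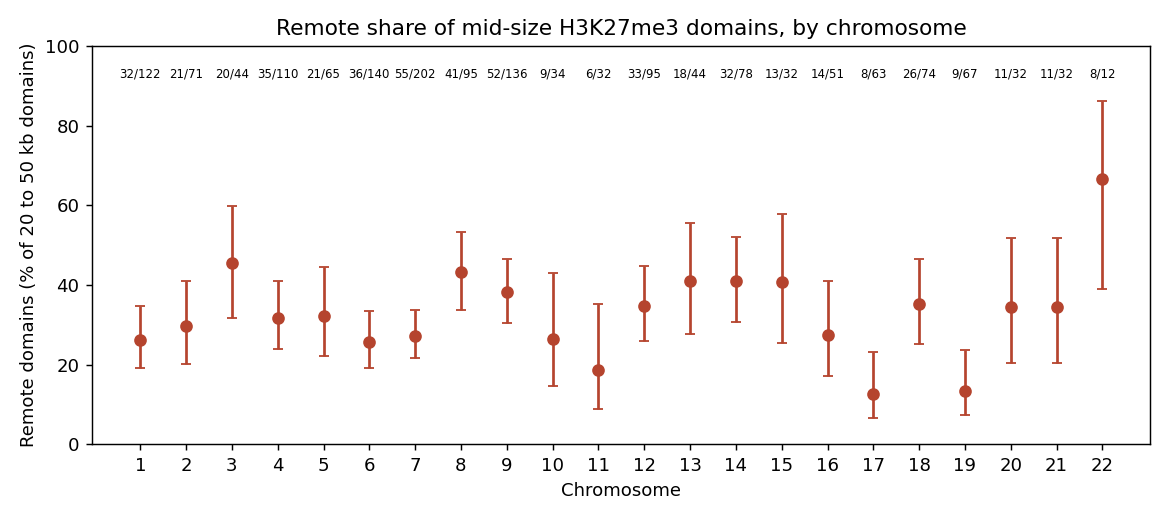
Remote domains as a share (%) of all H3K27me3 domains of 20 to 50 kb on each autosome, with Wilson 95% intervals and the counts above. Chromosomes 17 and 19 lie lowest, at 12.7% and 13.4%, and chromosome 22 highest, at 66.7% of 12 domains.

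Nearness to chromosome ends was counted from the lists themselves. Within 5 Mb of the first or last base listed on their chromosome lay 13.1% (10.5% to 16.3%) of remote and 15.3% (13.3% to 17.5%) of near domains. Within 5 Mb of the longest stretch with no region in either list lay 15.9% (12.9% to 19.3%) of remote and 11.96% (10.2% to 13.996%) of near domains. In both cases the intervals of the sets overlap.

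Many remote domains lay in series, though not a larger share than of near domains. With gaps of up to 250 kb between one remote domain and the next, 62 runs of 3 or more took in 244 domains, or 47.7% (43.5% to 52.1%) of the 511, while 151 remote domains stood alone and 58 runs had 2. The same rule put 617 of 1120 near domains, or 55.1% (52.2% to 58.0%), in 137 runs of 3 or more, and 1023 of the 1631 domains of both sets, or 62.7%. Chromosome 7 held 11 of these runs with 42 domains and chromosome 9 held 9 with 41.

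The longest run lay at chr9:21187074-22169160, with 8 remote domains over 982 kb. The CHD5 peaks to its left and right were 280 and 1326 kb away, leaving 2588 kb free of CHD5. Its 8 domains were 22.4 to 33.2 kb wide and differed in coverage, from 20.6% in the first, at chr9:21187074-21209433, to 59.4% in the fifth, at chr9:21546352-21572451. The domain at chr9:21954217-21985567 had 44 regions over 31.4 kb, was 56.3% covered and reached a score of 1036. In all 48 domains of any size lay in the run, of which 9 were at least 20 kb wide, and 19.3% of the run was covered.

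The other run of 8 lay at chr16:86146321-86964072, over 818 kb, and was more densely filled, with 31.9% covered. It had 31 domains of any size, 11 of them at least 20 kb wide and 3 of these above the upper width limit. CHD5 peaks bounded it at 360 kb on the left and 433 kb on the right. Its 8 remote domains ran from 29.5% covered, at chr16:86924950-86964072, to 57.6%, at chr16:86590716-86620163, where the highest score was 1419.

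**Figure D5:**
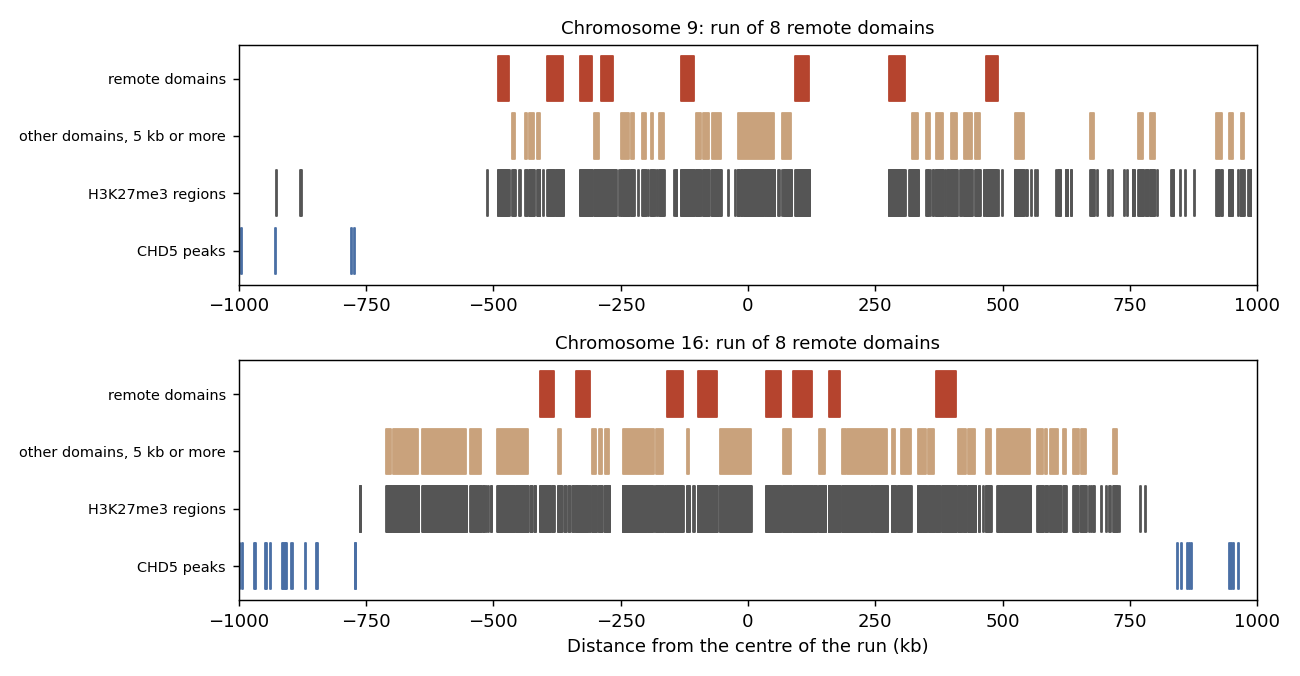
The runs of 8 remote domains on chromosomes 9 and 16, with distance from the centre of the run in kb. Rows show remote domains, other domains of at least 5 kb, H3K27me3 regions and CHD5 peaks, with features narrower than 2 kb drawn 2 kb wide. H3K27me3 fills the span of both runs in pieces, and CHD5 peaks begin 280 and 360 kb to the left and 1326 (off the plot) and 433 kb to the right.

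Runs of 6 lay on chromosomes 2, 9 and 18. At chr18:28559671-28993706 the 6 domains took up 199 kb of a span of 434 kb, and their coverage was even, from 36.3% to 50.1%. At chr2:95332673-95745444 the 6 domains were covered over 30.9% to 60.3%, and 4807 kb around them were free of CHD5. The CHD5 peak to the left lay 3483 kb away, across the longest empty stretch of that chromosome. The 4807 kb thus include a stretch with no region in either list. The run at chr9:40592051-41121468 was sparser, with 18.1% to 46.0% covered, and that at chr9:43346449-44150687 had 23.1% to 60.4%. The most densely covered run of 4 was at chr14:19606421-19967024, with a median of 74.3% and no CHD5 peak within 738 kb.

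The 10 remote domains with the highest coverage had 84.5% to 99.98% covered. Their longest region was 3403 to 26665 bp wide, where the longest region of a remote domain had a median of 991 bp. At chr5:49405640-49441694, 2 regions covered 99.98% of 36.1 kb. At chr19:24603420-24631781, 5 regions covered 99.8% of 28.4 kb with a median score of 3063. Both bordered the longest empty stretch of their chromosome, and neither had another domain of 5 kb or more within 250 kb. The domain at chr1:142567233-142606806, 93.0% covered, bordered such a stretch as well, and those at chr16:33932722-33964260 and chr21:9877708-9903724 lay 1.32 and 1.13 Mb from one. At chr14:19938691-19967024 and chr22:16206191-16234565 the domains lay 0.938 and 0.156 Mb from the first listed base. The remaining 3 of the 10 lay away from such places. They were at chr8:86552404-86576449, where a single region of 19.3 kb took most of the domain, chr13:57709973-57749185, and chr6:161026007-161072006, where a region of 21.7 kb stood among others with a median score of 79.0. The highest score was exactly 3100 in the domains on chromosomes 5, 6, 8, 14, 16 and 22, and above it in those on chromosomes 13 and 19. No input or control signal was set against these domains, and the part of read mapping in them was not tested.

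Long regions were not confined to these 10 domains. A region of 3 kb or more was present in 22 remote domains, or 4.31% (2.86% to 6.43%), against 80 near domains, or 7.14% (5.78% to 8.80%). The 22 remote domains had a median coverage of 82.1%, against 40.2% in the other 489, and all 10 remote domains with a score of 3000 or more were among them. Regions of 10 kb or more were found in 5 remote domains and in 1 near domain, and 3 of the 5 lay within 5 Mb of the longest empty stretch. Without domains that hold a region of 3 kb or more, the covered share of remote minus near domains was -5.05 percentage points, and without domains within 5 Mb of the longest empty stretch it was -6.23.

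Several of these also had the highest median scores. After the domains on chromosomes 19 and 5, with 3063 and 1575, came those on chromosome 13 with 678 and on chromosome 16 with 531. A domain at chr14:19606421-19636852 had 305, and the one at chr14:19938691-19967024 had 301, followed by those on chromosome 1 with 280 and chromosome 22 with 268. Domains with short regions came only after these. At chr14:29223912-29257421, 42 regions covered 76.7% with a median score of 216 and 1 other domain of 5 kb or more within 250 kb. At chr7:42055824-42093844, 40 regions covered 77.5% with a median score of 212, and 14 other domains of 5 kb or more lay within 250 kb.

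The 10 widest remote domains were 47.7 to 49.7 kb wide, with 37.3% to 69.8% covered and median scores of 86.95 to 119.8. They lay at chr1:121362513-121412185, chr2:222802585-222852191, chr3:88243128-88291892, chr8:47012689-47062034 and chr9:71345012-71392824. Chromosome 7 held 3 of them, chr7:117484215-117533094, chr7:120352731-120402213 and chr7:153097062-153145867, and the last, with 69.8% covered, was the fullest of the 10. Chromosome 6 held 2, chr6:138015024-138062710 and chr6:147844265-147893667. The domain on chromosome 8 was made of 95 regions, the highest number in any remote domain, none longer than 783 bp.

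The 10 remote domains farthest from CHD5 began with 3 on chromosome 21, at chr21:9877708-9903724, chr21:10617982-10647697 and chr21:11003130-11031873. Their nearest CHD5 peak was 5.50, 4.75 and 4.37 Mb away, and they were covered over 84.5%, 53.0% and 68.3%. All 3 lay within 1.13 Mb of the longest empty stretch of that chromosome. Their distances to CHD5 run across that stretch and so include sequence with no region in either list. The other 7 lay between 1.33 and 1.79 Mb from CHD5. They were at chr4:69242240-69266808, chr15:96580761-96601484, chr5:3175794-3204208, chr8:85087135-85111284, chr8:86148843-86186184, chr3:88243128-88291892 and chr3:88299135-88333860. These were covered over 36.9% to 62.8%, and the one on chromosome 5 was the fullest of the 7.

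Isolated remote domains were rare. No other domain of 5 kb or more lay within 250 kb of 4 of the 511, or 0.783% (0.305% to 2.00%), against 26 of 1120 near domains, or 2.32% (1.59% to 3.38%), and the intervals overlap. Besides the domains on chromosomes 5 and 19 described above, these were at chr4:52660128-52682941 and chr11:30019047-30041907, named after their values were seen. The one on chromosome 4 was 67.7% covered by 22 regions, and no other domain of any size lay within 250 kb of it. Like those on chromosomes 5 and 19, it bordered the longest empty stretch of its chromosome, so its flank on that side is empty. The one on chromosome 11 was 39.8% covered by 33 regions and had 12 smaller domains around it.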

How the data were processed

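Per the file headers, both region lists are MACS peak calls of 1 library each, and per the submitters' processing notes the build is hg19. Its version, threshold and control library, and how reads were aligned, are not given in the sources used. The deposited score per region is the authors', starts at 50 in both lists, has no stated scale and was used only within the H3K27me3 list and as a limit on CHD5 peaks in an alternative. The other deposited values used were the start and end of each region, given here counted from 1. Domains, distances, coverage and neighbours were computed in Python 3.11.15 with numpy 2.4.6, pandas 2.3.3 and scipy 1.17.1, and figures drawn with matplotlib 3.10.9. bedtools 2.31.1 gave the same 511 members. In simulated lists the routines found all 57 planted members. Each feature was compared as a median or share with no test.

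The members and the features compared were chosen with earlier results of these data known. Named domains are the 10 widest, the 10 most covered, the 10 farthest from CHD5 and the 10 highest by median score, runs of 3 or more (described from the longest down, and the most covered run of 4), domains next to each limit, and the isolated domains. The gene annotation and promoter sequences at hand belong to GRCh38.p14, another build. Coordinates were not converted, so genes, known gene clusters and sequences at the domains were not analysed here. Alternatives covered the joining distance, the remote distance, score limits, width, chromosomes and the makeup of the near set.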

Additional observations from a re-analysis of the deposited data

Results flagged for a closer look

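Chromosomes X and Y were outside the comparisons, and both are given here because their domains enter no result of the report. On X, 32 of 60 domains of 20 to 50 kb had no CHD5 peak within 250 kb, a share of 53.3% (Wilson 95% interval 40.9% to 65.4%). The share was 56.0% over the 4545 X domains of all widths and 31.3% over autosomal domains of 20 to 50 kb. It is the quantity by which remote domains were chosen, and its difference between X and the autosomes was not tested. The 32 had a median covered share of 39.69%, a median score of 89.96 and a median of 7 other domains of 5 kb or more within 250 kb. Over all 60 X domains of this width the median covered share was 39.65%. The 60 include the 32, so remote and near domains on X were not compared. On Y, all 5 domains of this width had no CHD5 peak within 250 kb, a share of 100% (56.6% to 100%). Their median covered share was 51.7% and their median score 164.6, above the medians of 40.7% and 92.9 in autosomal remote domains. What lies behind the Y values was not tested.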

How the results depend on the processing

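With rows joined across up to 1000 bp there were 114 remote domains, which overlapped 46 of the original 511, and the difference (remote minus near) was -0.39 percentage points in covered share, 3.69 in score, -1 in the number of neighbours of 5 kb or more and -5.48 percentage points in the share with another domain of 20 kb or more within 250 kb. The cause was not tested, although far fewer domains reached the width. The number of remote domains was 812 with joining across up to 5000 bp, 1008 with 100 kb as the distance limit, 189 with 500 kb, 910 with only CHD5 peaks of at least the median score, 220 with only H3K27me3 regions of at least the median score, 335 at widths of 20 to 30 kb and 176 at 30 to 50 kb. In the distance, CHD5 score and width alternatives this follows from the limits themselves. The difference in score was -5.59 with the higher-scoring CHD5 peaks and -14.95 with the higher-scoring H3K27me3 regions. The share with another wide domain differed by 4.97 percentage points (1.47 to 8.65) at 100 kb and -5.59 (-12.0 to -0.30) at 500 kb, so its sign depended on the limit. The mean difference in neighbours within 4 classes of width was 2.13.

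The difference in covered share was negative in 15 of 15 alternatives, from -7.26 to -0.39 percentage points, and within the interval of the reported difference in 14. The value of -0.39, with joining across up to 1000 bp, had an interval of -4.22 to 2.88, so the sets were not distinguishable there. Many alternatives reuse the same domains and are not independent. The score stayed lower in 14 of 15. The runs by width stratum, without the empty stretches and without long regions were chosen after seeing the data. No replicate could be left out with 1 library of each kind. No paired analysis was possible because each group has 1 library. Depth is unknown, so what it limits could not be measured.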
